A study of Mus musculus with 18 samples.

Results

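The transcripts of 8 actin and actin-like genes were followed through 6 populations of mouse male germ cells. The genes were chosen by symbol, as Actb, Actg1, Actl6a, Actl7a, Actl7b, Actl9, Actrt2 and Actrt3, out of 46603 genes in the count table, and all 8 were among the 18547 genes that passed a filter on low counts. The members are picked out by symbol alone, but the set of symbols was drawn up with earlier results of these data known. Each population was measured in 3 libraries, 18 in all, of RNA from sorted cells read by single-end sequencing. The group names are short forms that the labels do not explain, and the readings given here are those common in work on the testis: Undiff.Spg for spermatogonia before differentiation, Diff.Spg for spermatogonia committed to it, PreL for preleptotene, LZ for leptotene or zygotene and PD for pachytene or diplotene spermatocytes, and RS for round spermatids. All groups share 1 source: adult male mice of a C57BL/6 strain carrying the Stracre-GAG-tdTomato transgenes (the protocol text writes the background as C57BL/5), with no treatment and no other genotype, so no library without the transgenes was compared. The labels do not say whether the 3 libraries of a group came from separate mice, so p-values measure the spread between these libraries, which may be technical.

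Actin is the protein of the thin filaments that give cells their shape and let them divide and crawl. Actb and Actg1 encode the beta and gamma forms that nearly all cells make, and their proteins are almost identical. Actl6a encodes BAF53a, an actin-related protein that sits with actin inside chromatin remodelling complexes (BAF, INO80 and TIP60) and does not build filaments. Actl7a, Actl7b, Actl9, Actrt2 and Actrt3 are testis genes whose proteins are parts of the sperm head skeleton: the perinuclear theca, a shell between the nucleus and the acrosome, and the acroplaxome, the plate that fastens the acrosome to the nucleus. Loss of Actl7a or Actl9 in mice and humans disturbs the acrosome or its attachment and sperm fertility.

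The 8 genes differ in how they are built. Actb (ENSMUSG00000029580; GRCm38, chr5:142903115-142906754, minus strand) and Actg1 (ENSMUSG00000062825; chr11:120345690-120348542, minus strand) each have 6 exons in the coding transcript used here, and Actl6a (ENSMUSG00000027671; chr3:32706298-32726973, plus strand) has 14. Actl7a (ENSMUSG00000070979; chr4:56743413-56744925, plus strand) and Actl7b (ENSMUSG00000070980; chr4:56740005-56741443, minus strand) are single-exon genes that point away from each other with 1969 bases between their starts. Actl9 (ENSMUSG00000092519; chr17:33432896-33434268, plus strand) and Actrt2 (ENSMUSG00000051276; chr4:154666433-154667867, minus strand) are also single-exon genes, and Actrt3 (ENSMUSG00000037737; chr3:30597073-30599939, minus strand) has 2 exons. GENCODE tags Actl7a, Actl7b and Actl9 as retrogenes, copies that arose from a spliced RNA.

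The bases before the starts of these genes are shown because the genes moved in groups along the populations. RefSeq promoter sequences on GRCm38.p6 matched 7 of the 8 genes, all but Actb. The annotated starts used for the windows come with these sequences and are not the ends of the gene coordinates above. The windows of Actg1, Actl7a, Actl7b, Actl9 and Actrt3 reach into those coordinates, and that of Actl6a lies inside them. All distances to a start below are counted from the starts of the promoter sequences. Each window below is the 250 bases before the annotated start, read 5′ to 3′ on the gene's own strand, with capitals marking the motif letters found: for Actg1 (chr11:120348496-120348745) a CArG box, the element bound by the actin gene regulator SRF, a CCAAT box and a MYB word; for the 3 retrogenes (Actl7a chr4:56743172-56743421, Actl7b chr4:56741426-56741675, Actl9 chr17:33432649-33432898) the word TGATGTCA or its reverse complement, MYB words, a CCAAT box in Actl7b and TATAAA in Actl9.
Actg1: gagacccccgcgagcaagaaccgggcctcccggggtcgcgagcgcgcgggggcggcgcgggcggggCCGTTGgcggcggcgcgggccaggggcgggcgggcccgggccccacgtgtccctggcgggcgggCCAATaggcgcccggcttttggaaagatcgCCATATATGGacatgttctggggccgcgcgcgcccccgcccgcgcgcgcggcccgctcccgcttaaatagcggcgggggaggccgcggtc
Actl7a: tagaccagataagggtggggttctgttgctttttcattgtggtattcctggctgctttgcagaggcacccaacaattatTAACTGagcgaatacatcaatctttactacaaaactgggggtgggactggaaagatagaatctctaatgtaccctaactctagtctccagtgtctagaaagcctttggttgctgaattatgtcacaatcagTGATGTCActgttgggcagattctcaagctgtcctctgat
Actl7b: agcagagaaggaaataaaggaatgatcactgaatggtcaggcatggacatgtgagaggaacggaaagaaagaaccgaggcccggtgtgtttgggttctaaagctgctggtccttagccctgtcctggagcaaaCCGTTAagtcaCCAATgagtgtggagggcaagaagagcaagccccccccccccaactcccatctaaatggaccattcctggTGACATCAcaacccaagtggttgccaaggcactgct
Actl9: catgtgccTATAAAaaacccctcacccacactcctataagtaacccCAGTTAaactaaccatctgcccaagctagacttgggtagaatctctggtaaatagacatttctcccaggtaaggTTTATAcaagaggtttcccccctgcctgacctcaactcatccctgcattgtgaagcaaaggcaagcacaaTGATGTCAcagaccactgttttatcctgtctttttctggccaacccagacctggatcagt
The word TGATGTCA differs by 1 letter from the cAMP response element TGACGTCA, and it was picked after these sequences had been read. It lay 40 to 33 bases before the start of Actl7a, 60 to 53 before Actl9 and, on the other strand, 36 to 29 before Actl7b, and 2.93% of 32851 promoters of this length held it on either strand. The full element TGACGTCA (1.55% of promoters) was in none of the 7 windows, and the shorter word TGACG (17.77%) was found in Actrt3 only, 59 to 55 bases before the start. A CArG box (1.47% of promoters) was found in Actg1 only, 90 to 81 bases before the start. MYB words (TAACTG or TAACGG, or either with C as its first letter; 23.66%) lay in Actg1, Actl7a, Actl7b and Actl9, CCAAT (33.85%) in Actg1 and Actl7b, and TATAAA (12.37%) in Actl9, at 242 to 237 bases before the start and, on the other strand, at 130 to 125. All words were searched on both strands. The windows of Actrt2 and Actl6a held none of these words. Overlaps between motifs were not removed, and a match describes the letters only.

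Totals ran from 11777947 to 16607462 counted reads per library. Stage markers moved with the labels: the summed CPM (counts per 1e6 reads of the scaled library total) of 12 undifferentiated spermatogonia markers was 3081 to 3223 in Undiff.Spg and at most 385 elsewhere, and that of 10 pachytene and diplotene markers was at least 13878 in PD and RS and at most 740 elsewhere, with the preleptotene list highest in LZ (3402 to 3674) rather than PreL (1628 to 1769). PreL replicate 2 and LZ replicate 2 stood apart by median: 14 spermatid markers were at a median of 1.98% and 1.83% of their mean RS level there, against 0.165% to 0.860% in the other PreL and LZ libraries. Single markers did not all follow the median. In LZ replicate 1, where the median was 0.860%, Prm1, Prm2, Tnp1 and Tnp2 stood at 11.2%, 13.4%, 4.65% and 6.74%. They stood at 2.08%, 1.27%, 1.87% and 1.89% in LZ replicate 2. Called values of the 8 genes that moved by over 1.5 times without PreL replicate 2 or LZ replicate 2 are given with and without them. Markers of other testis cells were low but not absent: summed levels of 14 Sertoli markers were 11.6 to 42.6 CPM outside LZ and 66.8 to 119.8 CPM in LZ, with Fshr at 0 outside LZ; 8 Leydig, 9 leukocyte, 7 endothelial and 5 red cell markers reached at most 8.05, 26.4, 49.8 and 1.62 CPM. In bulk RNA, fewer cells of a type and less RNA per cell cannot be told apart.

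All 8 genes differed among the 6 groups (edgeR's quasi-likelihood test with Benjamini-Hochberg adjustment, adjusted p from 5.51e-14 for Actg1 to 1.42e-08 for Actl9), as did 99.0% of all genes tested, so the genes are described by the steps in which they changed. Between neighbouring groups a gene was called at an adjusted p under 0.05.

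**Figure D1:**
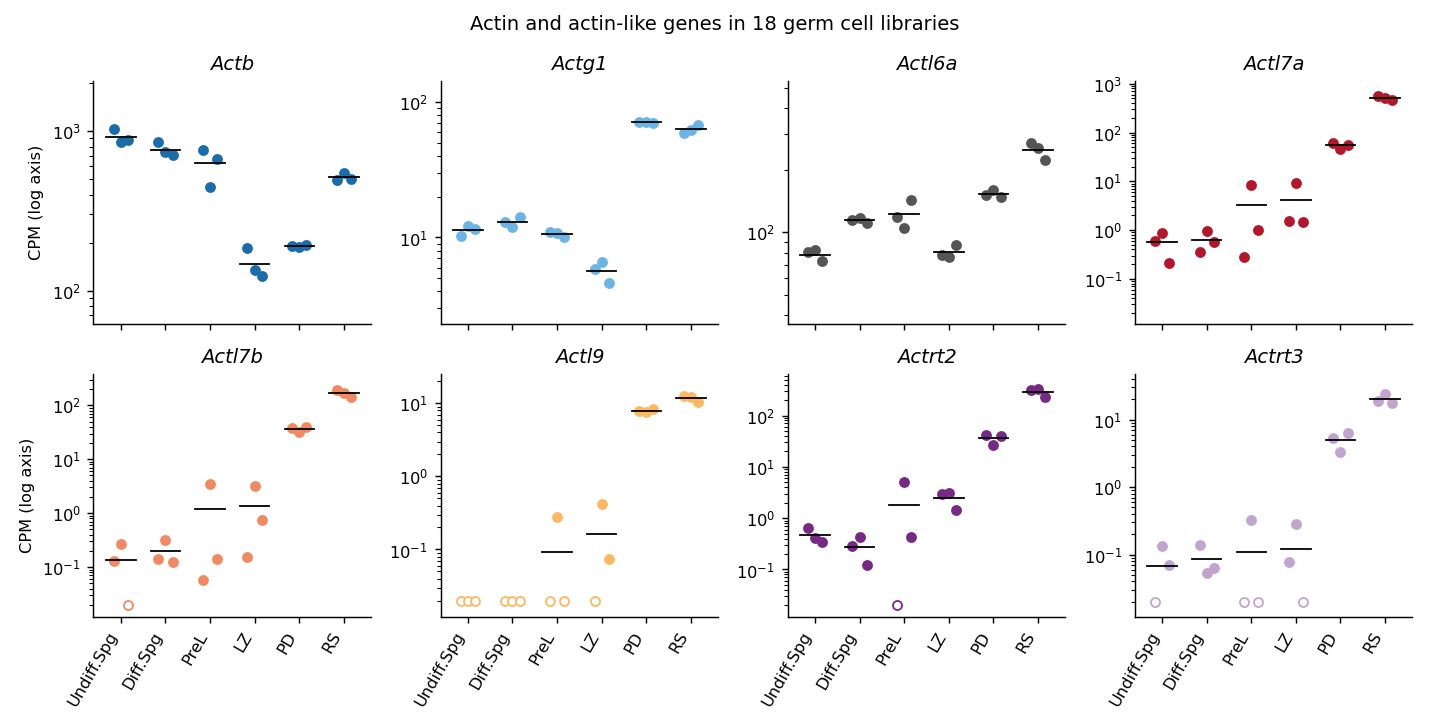
CPM of each gene in each of the 18 libraries (points; log axis) with the group mean (line); open points at the bottom are libraries with 0 reads. Actb is high in the first 3 groups, lowest in LZ and higher again in RS, Actg1 is high in PD and RS, and the 5 testis genes go from near 0 to their highest level in RS.

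Actb, the main cytoplasmic actin, was highest in spermatogonia. It stood at 1029, 853.5 and 878.4 CPM in Undiff.Spg, at 849.6, 740.2 and 705.7 CPM in Diff.Spg, and at 764.3, 447.5 and 668.5 CPM in PreL. PreL replicate 2, in which spermatid markers were raised, was the lowest of the PreL libraries. In LZ it stood at 183.7, 135.0 and 124.0 CPM, in PD at 189.9, 186.9 and 191.9 CPM, and in RS at 490.8, 547.1 and 499.4 CPM. The LZ libraries lay below all others, and the RS libraries lay above those of PD and below those of the first 3 groups other than PreL replicate 2. Actb fell 4.25-fold from PreL to LZ (log2 fold change -2.09 ± 0.18 (SE), adjusted p 1.23e-07 by edgeR) and rose 2.70-fold from PD to RS (1.43 ± 0.18, adjusted p 2.26e-06). In RS it was still 1.80-fold below Undiff.Spg (-0.84 ± 0.17, adjusted p 0.000211). The size of this difference was less firm than its SE: over 26 other settings it ran from -1.65 to -0.65, called lower in each. In the order of its levels, Undiff.Spg against Diff.Spg, Diff.Spg against PreL and PreL against RS were not called (adjusted p 0.122 to 0.235 by edgeR). Groups further apart in that order were called. Actb was lower in PreL than in Undiff.Spg (-0.55 ± 0.17, adjusted p 0.0106 by edgeR). It was also lower in RS than in Diff.Spg (-0.58 ± 0.17, adjusted p 0.00476).

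The step from LZ to PD was not called for Actb (0.36 ± 0.17, adjusted p 0.0620 by edgeR), although the 3 PD libraries lay just above the 3 LZ libraries. It was called in 7 of 26 other settings, with log2 fold changes of 0.36 to 0.54, it ran from 0.06 to 0.54 with any 1 library left out, and scaling by total library size turned its sign to -0.05, while moving the median of all genes by -0.35. Pairing the libraries by replicate number gave 0.38 (adjusted p 0.0334).

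Actg1, the other cytoplasmic actin, took a different course. It stood at 10.2, 12.2 and 11.55 CPM in Undiff.Spg, at 12.9, 11.9 and 14.3 CPM in Diff.Spg, and at 10.9, 10.8 and 10.1 CPM in PreL. In LZ it stood at 5.83, 6.62 and 4.63 CPM, in PD at 71.2, 71.2 and 69.8 CPM, and in RS at 59.3, 61.8 and 67.2 CPM. The PD and RS libraries lay far above the rest and the LZ libraries below all others. Actg1 fell 1.86-fold from PreL to LZ (-0.90 ± 0.14, adjusted p 3.98e-05 by edgeR) and rose 12.4-fold from LZ to PD (3.63 ± 0.14, adjusted p 4.78e-13). From PD to RS the log2 difference was -0.17 ± 0.12 (adjusted p 0.248), and it was called lower only when libraries were scaled by total size (-0.38, adjusted p 0.0297).

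The level of Actg1 and its ratio to Actb carry a limit. In the coding transcript, 56.7% of the 1903 words of 50 bases also occur in annotated transcripts of 22 other genes, most of them processed pseudogenes such as Gm12715, Gm8399 and Actg-ps1, against 14.2% for Actb (18 genes, among them Lrrc58), 0.204% for Actl6a and none for the 5 testis genes. Neither the read length nor the counting of reads with several places is stated in the sources used here, so whether such reads of Actg1 were dropped or counted elsewhere is unknown. Actb and Actg1 share 997 of 1125 aligned coding bases (88.62%), while the other pairs of the 8 genes share 48.06% to 62.82%, the highest being Actl7a with Actl7b. Per kilobase of annotated exon, Actb was 80.9 times as high as Actg1 in Undiff.Spg, and 41.8 times when lengths counted only positions with an unshared word, a choice made after seeing the data. In PD the same values were 2.66 and 1.38.

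The ratio of Actb to Actg1 within a library does not depend on scaling. The reads of Actb were 100.8, 70.0 and 75.8 times those of Actg1 in Undiff.Spg, 65.6, 62.2 and 49.4 times in Diff.Spg and 69.8, 41.5 and 65.7 times in PreL. They were 31.3, 20.3 and 26.6 times in LZ, 2.67, 2.62 and 2.75 times in PD, and 8.27, 8.85 and 7.42 times in RS. Every pair of neighbouring groups but Diff.Spg and PreL was without overlap, with PD lowest and RS above it. The mean log2 ratio dropped by 0.47 from Undiff.Spg to Diff.Spg. It dropped by 1.16 from PreL to LZ and by 3.26 from LZ to PD, and rose by 1.61 from PD to RS. Each of these had an exact 2-sided permutation p of 0.1, the smallest that 3 libraries against 3 allow. Between Diff.Spg and PreL the groups overlapped and the difference was -0.03 (exact permutation p 1.0).

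Actl6a, the subunit of chromatin remodelling complexes, had group means from 78.3 CPM in Undiff.Spg to 249.5 CPM in RS. It stood at 80.04, 82.2 and 72.6 CPM in Undiff.Spg, at 114.7, 117.3 and 111.3 CPM in Diff.Spg, and at 118.5, 104.6 and 143.9 CPM in PreL. In LZ it stood at 78.0, 75.9 and 86.7 CPM, in PD at 150.9, 160.9 and 149.0 CPM, and in RS at 268.8, 255.3 and 224.4 CPM. The Undiff.Spg and LZ libraries were low and overlapped, and the RS libraries were above all others. It rose 1.46-fold into Diff.Spg (0.55 ± 0.12, adjusted p 0.00131 by edgeR), fell 1.52-fold into LZ (-0.61 ± 0.12, adjusted p 0.000447), and rose 1.92-fold into PD (0.94 ± 0.12, adjusted p 1.69e-06) and 1.62-fold into RS (0.70 ± 0.12, adjusted p 7.9e-05). Actl6a overlaps Mrpl47, a gene on the other strand that itself went from 33.8 ± 6.83 CPM in Undiff.Spg to 96.8 ± 14.6 CPM in RS (SD, n = 3), and reads of such a pair cannot be told apart unless strand was used, which the sources used here do not state.

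Subunits of the complexes that hold Actl6a were more often lower than higher in RS than in PD. Among 24 subunits of the BAF complex 4 were higher and 13 lower, against 30.3% and 28.6% of all genes, with a median log2 fold change of -0.38 against 0.00 over all genes tested. Smarcd1, a core subunit, fell from 90.6 ± 14.3 to 20.6 ± 3.31 CPM (SD, n = 3; log2 -2.13, adjusted p 3.23e-09 by edgeR), while Dpf3, a histone reader subunit, rose from 7.29 ± 0.876 to 64.6 ± 4.18 CPM (3.15, adjusted p 3.97e-07). The 24 genes of the INO80 and TIP60 complexes gave 16 higher and 4 lower in PD than in LZ (median 0.79), against 42.1% and 40.8% of all genes, and 12 and 6 with total library size (median 0.39). They were mostly lower in RS than in PD (4 higher, 13 lower, median -0.44; 2 and 18 with scaling by total library size). Kat5, the acetyltransferase of TIP60, rose from 62.6 ± 4.07 to 231.6 ± 9.44 CPM from LZ to PD (1.89, adjusted p 1.73e-09), and Actr5, an actin-related subunit of INO80, fell from 49.8 ± 11.5 to 5.80 ± 1.08 CPM from PD to RS (-3.09, adjusted p 2.68e-09).

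The 5 testis genes were near 0 in spermatogonia and highest in RS. Actl7a stood at 0.587, 0.873 and 0.209 CPM in Undiff.Spg, at 0.351, 0.972 and 0.560 CPM in Diff.Spg, and at 0.284, 8.29 and 0.9997 CPM in PreL. In LZ it stood at 1.53, 9.23 and 1.47 CPM, in PD at 62.2, 46.5 and 55.5 CPM, and in RS at 568.3, 513.9 and 464.4 CPM. Only replicate 2 was above 2 CPM in PreL and LZ, and PD and RS overlapped with no other group. It rose 13.3-fold into PD (3.73 ± 0.76, adjusted p 0.000234 by edgeR) and 9.42-fold into RS (3.24 ± 0.70, adjusted p 0.000688). LZ replicate 2 decided the size of the first step, which was 5.18 on the log2 scale without it (adjusted p 1.69e-05).

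Actl7b, its head-to-head neighbour, stood at 0.130, 0.269 and 0 CPM in Undiff.Spg, at 0.140, 0.324 and 0.125 CPM in Diff.Spg, and at 0.0569, 3.41 and 0.143 CPM in PreL. In LZ it stood at 0.153, 3.17 and 0.734 CPM, in PD at 37.3, 31.9 and 40.04 CPM, and in RS at 190.2, 166.7 and 140.8 CPM. The same libraries were high before PD as for Actl7a. It rose 26.2-fold into PD (4.71 ± 0.73, adjusted p 1.46e-05 by edgeR) and 4.56-fold into RS (2.19 ± 0.58, adjusted p 0.00334), the latter not called by DESeq2 (adjusted p 0.0742). Without LZ replicate 2 the step into PD was 6.31 on the log2 scale (adjusted p 3.3e-06). The log2 CPM values of both genes correlated at 0.991 over the 18 libraries, as a description of libraries that share their groups, and those of the 5 testis genes at 0.952 to 0.991; with Actb they correlated at -0.392 to -0.246.

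Actrt2, a protein of the perinuclear theca, stood at 0.652, 0.403 and 0.348 CPM in Undiff.Spg, at 0.281, 0.432 and 0.125 CPM in Diff.Spg, and at 0, 5.05 and 0.428 CPM in PreL. In LZ it stood at 2.91, 3.03 and 1.47 CPM, in PD at 42.1, 26.8 and 39.8 CPM, and in RS at 312.3, 321.6 and 234.8 CPM. All 3 LZ libraries were above all spermatogonial libraries. Actrt2 rose 14.6-fold into PD (3.87 ± 0.67, adjusted p 4.65e-05 by edgeR) and 7.99-fold into RS (3.00 ± 0.59, adjusted p 0.000282). DESeq2 gave no adjusted p for Actrt2, so these steps were not called by it.

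Actrt3 had fewer reads: 3, 4, 6 and 5 reads over the 3 libraries of Undiff.Spg, Diff.Spg, PreL and LZ. It stood at 5.31, 3.37 and 6.25 CPM in PD and at 19.0, 23.7 and 17.8 CPM in RS, with every PD and RS library above every earlier one. It rose 37.9-fold into PD (5.24 ± 0.64, adjusted p 9.67e-07 by edgeR) and 4.05-fold into RS (2.02 ± 0.38, adjusted p 0.000213). Of the 5 reads in LZ, 4 were in replicate 2, and the fitted step into PD was 6.73 on the log2 scale without that library (adjusted p 1.61e-06) and 4.51 without LZ replicate 3 (adjusted p 1.56e-05). Against the 3 reads of Undiff.Spg its RS level was 296 times as high, with a 95% interval of 101 to 1441 that covers counting error only.

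Actl9 differed from the other 4 testis genes in its last step. It had no read in the 6 spermatogonial libraries, 0, 5 and 0 reads in PreL and 0, 6 and 1 reads in LZ. In PD it stood at 7.87, 7.65 and 8.30 CPM and in RS at 12.6, 12.2 and 10.4 CPM. The PD and RS libraries did not overlap, as for 67.8% of all genes tested. With a floor of 3 reads over the 3 libraries of Undiff.Spg, Actl9 was at least 118-fold higher in PD and at least 173-fold higher in RS. It rose 44.2-fold from LZ to PD (5.47 ± 0.62, adjusted p 2.45e-06 by edgeR), while the step to RS was 0.56 ± 0.39 (adjusted p 0.244), called by DESeq2 (adjusted p 0.0479) and when PD and RS were fitted alone (0.0222). Of the 7 reads in LZ, 6 were in replicate 2, and without that library the fitted step into PD was 7.41 on the log2 scale (adjusted p 1.32e-06), which rests on 1 read in LZ. PD held 67.7% of the RS level of Actl9, against 10.6% for Actl7a, 12.52% for Actrt2, 21.9% for Actl7b and 24.7% for Actrt3.

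**Figure D2:**
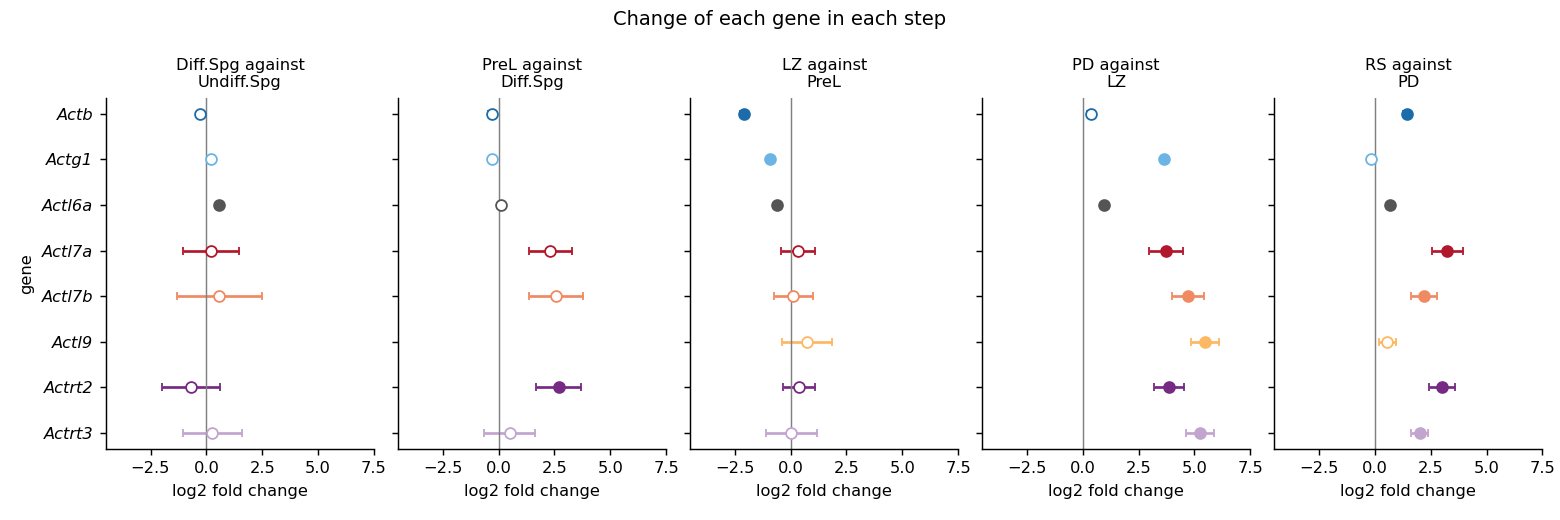
Log2 fold change (point) and its standard error (bar) of each gene in each step; filled points were called, and steps in which a group had 0 reads or both groups at most 3 reads are left out. In the step from LZ to PD 7 genes are filled and to the right, and Actb is open.

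Counted by step, most calls among the 8 genes fell after LZ. From Undiff.Spg to Diff.Spg, 1 was called (Actl6a, higher), against 43.5% of all genes called, 20.4% higher and 23.0% lower. From Diff.Spg to PreL, 1 was called (Actrt2, higher), against 45.2% of all genes called and 20.4% higher. From PreL to LZ 3 were called, all lower (Actb, Actg1 and Actl6a), against 47.5% of all genes called and 23.2% called lower. From LZ to PD 7 were called, all higher (every gene but Actb), against 82.9% called and 42.1% called higher. From PD to RS 6 were called, all higher (every gene but Actg1 and Actl9), against 58.9% called and 30.3% called higher. The median log2 fold change of the 8 genes was 3.80 from LZ to PD and 1.73 from PD to RS, against 0.00 over all genes in both steps. From Undiff.Spg to RS all 8 were called, Actb lower and the other 7 higher, against 88.8% called, 42.2% higher and 46.5% lower. With a change of at least 2-fold also required, the 6 comparisons in this order called 0, 1, 1, 6, 5 and 7 of the 8 genes, against 24.3%, 25.7%, 27.7%, 71.9%, 44.3% and 79.1% of all genes. The libraries of the compared groups did not overlap for 2 genes (Actb and Actl6a) from Undiff.Spg to Diff.Spg, for 1 (Actg1) from Diff.Spg to PreL and for 3 (Actb, Actg1 and Actl6a) from PreL to LZ, against 64.8%, 52.0% and 48.4% of all genes. They did not overlap for all 8 genes from LZ to PD, from PD to RS and from Undiff.Spg to RS, against 83.7%, 67.8% and 90.3%.

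The call of Actrt2 rests on 1 PreL library. Without PreL replicate 2, Actrt2 was no longer called from Diff.Spg to PreL and turned to -0.56 (adjusted p 0.685 by edgeR), and it was not called without any 1 of the Diff.Spg replicates (adjusted p 0.0664 to 0.120) or with the replicate number as a block (adjusted p 0.0509). In PreL replicate 2 Actrt2 was at 1.74% of its RS level, beside the 1.98% median of the spermatid markers, and the part of spermatid transcripts in the early values was not tested. From PreL to LZ, leaving that library out added Actl7a (2.74, adjusted p 0.00657), Actl7b (3.74, adjusted p 0.00841) and Actrt2 (3.63, adjusted p 0.000168) as higher. With LZ replicate 2 left out as well, Actl7a (adjusted p 0.0423) and Actrt2 (0.000311) stayed called.

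The PD levels of the late genes lie beside those of spermatid markers. The 14 markers, such as the protamine genes Prm1 and Prm2 and the acrosomal gene Acrv1, stood in PD at medians of 12.4%, 8.42% and 12.2% of their RS level, with a range over markers and libraries of 5.87% to 51.9%. Actl7a stood at 12.1%, 9.02% and 10.8%, and Actrt2 at 14.5%, 9.27% and 13.8%, both within that range in each library. Actl7b (19.2% to 24.1%) and Actrt3 (16.7% to 31.0%) also lay within it, and Actl9 (65.2% to 70.8%) lay above it. The part of spermatid RNA in the PD libraries was not tested.

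**Figure D3:**
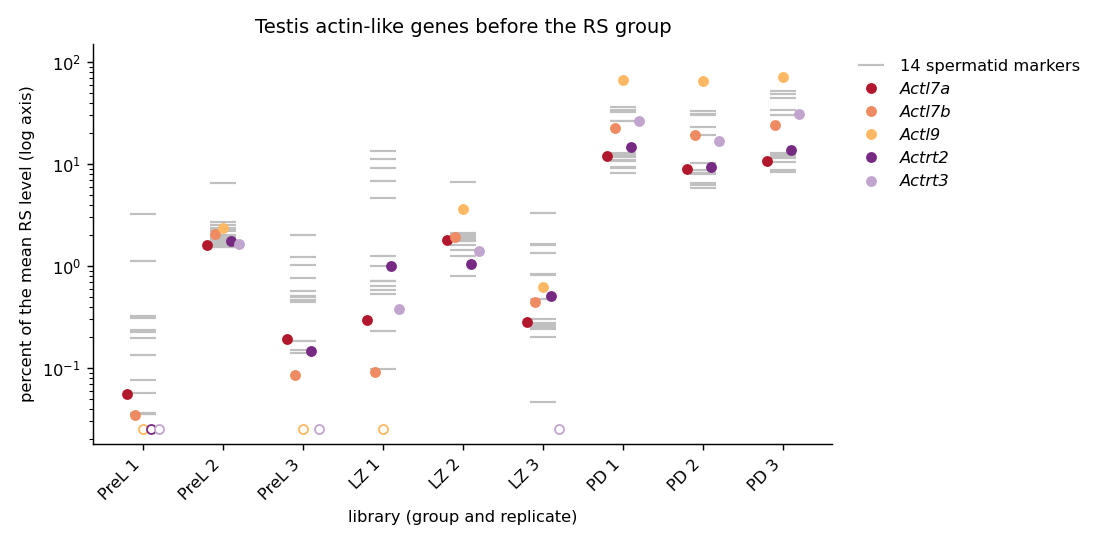
Level of the 5 testis actin-like genes (points) in each PreL, LZ and PD library as a percent of their mean RS level (log axis), with 14 spermatid markers (grey dashes); open points are libraries with 0 reads. In PreL 2 and LZ 2 these genes lie within the range of the markers, and in PD Actl9 lies above all markers.

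Per kilobase of exon, Actb held most of the summed level in the first 4 groups and the testis genes most of it in RS. Actb made up 93.1% ± 0.807 (SD, n = 3) of the summed level of the 8 genes in Undiff.Spg, 89.0% ± 0.930 in Diff.Spg, 84.8% ± 4.79 in PreL, 65.6% ± 6.49 in LZ, 30.6% ± 1.44 in PD and 20.1% ± 1.96 in RS. The 5 testis genes together made up 0.223% ± 0.102, 0.249% ± 0.117, 2.01% ± 3.11, 6.65% ± 5.54, 40.8% ± 3.88 and 70.7% ± 2.29 in the same order. In RS, Actl7a led with 35.7% ± 1.36, then Actrt2 with 21.02% ± 1.73, Actb with 20.1% and Actl7b with 12.03% ± 0.824, and Actrt3 and Actl9 held 1.08% and 0.893%. The shares of Actrt2 and Actb differed by less than the SD of either. The summed level of the 8 genes was lowest in LZ (83.4 ± 10.6 CPM per kilobase) and highest in RS (955.7 ± 88.6). With the longest transcript as the length, the testis genes made up 61.4% ± 2.46 in RS and Actb 24.4% ± 2.19, since Actb, Actg1 and Actl6a have shorter single transcripts than exon unions. The shares take no account of the words that Actg1 and Actb share with other genes. Per kilobase of unshared positions, Actg1 stood in PD at 85.8 CPM in place of 26.6, and Actb at 118.1 in place of 70.8. Shares on that length were not computed.

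**Figure D4:**
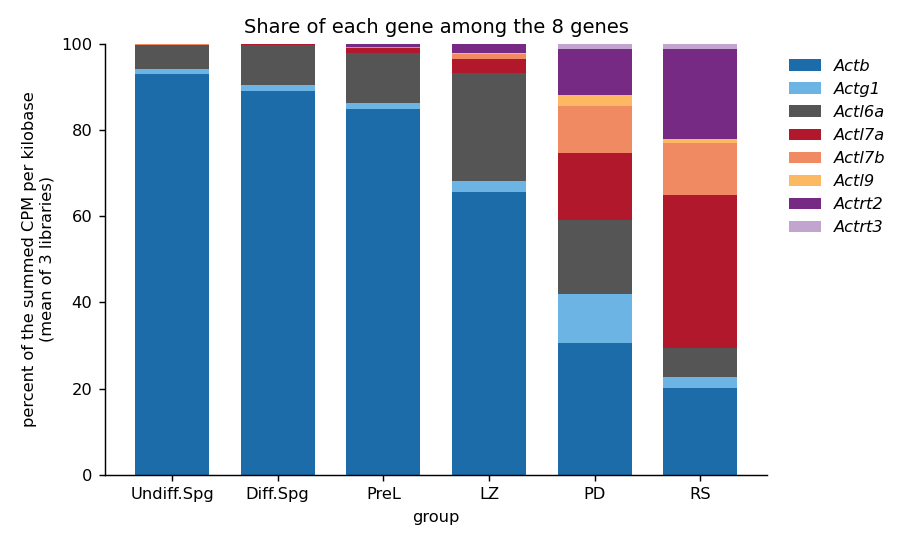
Share of each gene in the summed CPM per kilobase of the 8 genes, as the mean of 3 libraries in each group (stacked bars, percent). Actb takes 93.1% in Undiff.Spg and 20.1% in RS, where the 5 testis genes take 70.7%.

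Most genes of a theca list for the sperm head skeleton, which also holds acrosome and Golgi genes, were higher in PD than in LZ. Most were higher again in RS. Of the 19 genes of this list tested, 17 were higher and 1 lower in PD than in LZ (median log2 fold change 3.43), against 42.1% and 40.8% of all genes. In RS, 13 were higher and 1 lower than in PD (median 2.65), against 30.3% and 28.6% of all genes. The medians over all genes were 0.00 in these steps. Zpbp2, an acrosomal zona binding protein, rose from 10.1 ± 9.53 to 651.2 ± 77.3 CPM from LZ to PD (SD, n = 3; log2 6.01, adjusted p 3.93e-07 by edgeR). Cylc2, a theca protein, rose from 24.1 ± 7.76 to 340.4 ± 95.1 CPM from PD to RS (3.82, adjusted p 0.000185), and Spaca1, a protein of the acrosome membrane, rose from 36.5 ± 8.35 to 464.8 ± 98.5 CPM (3.67, adjusted p 4.29e-06). Gopc, a Golgi protein needed to form the acrosome, fell from 108.0 ± 9.51 to 15.7 ± 4.52 CPM in the same step (-2.77, adjusted p 8.3e-10). From Diff.Spg to PreL 9 of the 19 were higher and from PreL to LZ 6, the latter 2 with total library size; without PreL replicate 2 and LZ replicate 2 these counts, added after seeing the data, were 4 (and 1 lower) and 13.

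Between LZ and PD, where 42.1% of all genes were higher and 40.8% lower, 3 of the 5 lists of filament genes were mostly lower. Those of filament capping (7 higher, 5 lower of 12, median 1.0) and of monomer binding and turnover (7 higher, 6 lower of 15, median 0.23) lay near the shares over all genes. Of 9 genes of the Arp2/3 complex, which starts branched filaments, 7 were lower and 1 higher in PD than in LZ (median -1.78); Arpc5 fell from 33.9 ± 3.63 to 2.26 ± 0.637 CPM (SD, n = 3; -3.90, adjusted p 1.57e-11 by edgeR), and Arpc5l rose from 129.4 ± 14.5 to 182.3 ± 0.791 CPM (0.49, adjusted p 0.00123). Of 11 tropomyosins and non-muscle myosin II genes, 8 were lower and 2 higher (median -4.42, or -3.74 with a gene at 0 reads set to its bound). Myh9, a myosin heavy chain, fell from 151.3 ± 34.0 to 1.14 ± 0.249 CPM (-7.03, adjusted p 1.01e-13), while its relative Myh10 rose from 142.2 ± 21.6 to 354.1 ± 26.9 CPM (1.32, adjusted p 1.27e-07). Of 26 formins, WASP family genes and filament cross-linkers, 14 were lower and 5 higher (median -1.94); the cross-linker Flna fell from 60.01 ± 6.16 to 1.68 ± 0.356 CPM (-5.15, adjusted p 4.69e-13). The medians of the 3 mostly lower lists kept their sign under RLE and total-size scaling, as did that of filament capping. The median of monomer binding and turnover turned to -0.19 with total size. The Arp2/3 genes gave 0 higher and 8 lower with total size, so that Arpc5l was no longer called higher.

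Genes of the SRF circuit, which in other cells senses free actin and drives actin genes, were mostly lower in Diff.Spg than in Undiff.Spg and higher in RS than in PD. Of 16 tested, 10 were lower and none higher in Diff.Spg than in Undiff.Spg (median -0.75 against 0.00 over all genes), against 23.0% and 20.4% of all genes. Egr1, an immediate early gene, fell from 410.8 ± 23.9 to 18.8 ± 1.96 CPM (SD, n = 3; -4.45, adjusted p 7.38e-10 by edgeR), and Tagln2, an actin binding protein, fell from 150.4 ± 8.96 to 19.5 ± 0.340 CPM (-2.95, adjusted p 7.9e-10). From LZ to PD 10 were lower and 2 higher (median -2.03), against 40.8% and 42.1% of all genes. From PD to RS 10 were higher and 1 lower (median 0.74), against 30.3% and 28.6% of all genes, and with total size 7 and 1. Srf itself rose from 45.6 ± 2.75 to 206.6 ± 16.4 CPM in that last step (2.18, adjusted p 4.43e-10), and Vcl, the adhesion protein vinculin, from 2.36 ± 0.341 to 24.8 ± 2.96 CPM (3.39, adjusted p 1.93e-10). Actb rose in the same step and Actg1 was not called. No window of Actb was available to search for the CArG box found in Actg1, and a link of either gene to SRF was not tested.

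**Figure D5:**
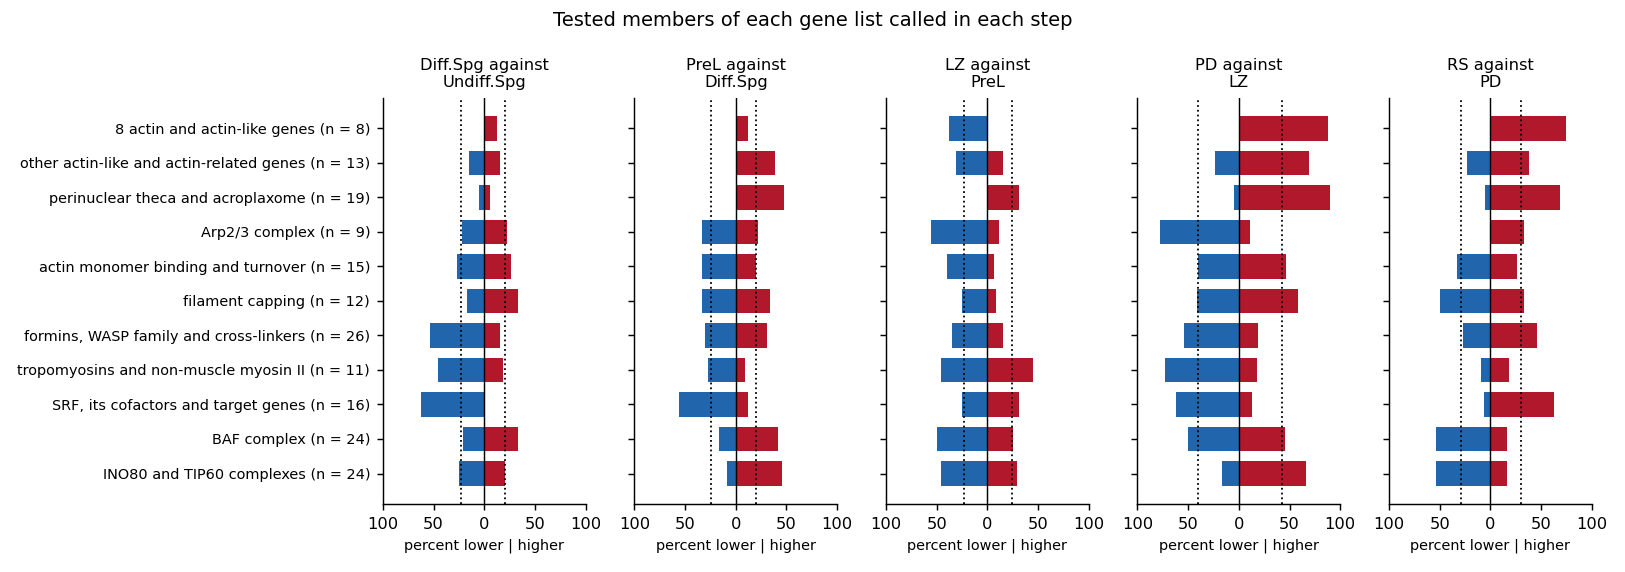
Percent of the tested genes of each list called higher (red, right) or lower (blue, left) in each step; dotted lines give the percent of all tested genes called in each direction. From LZ to PD the 8 genes and the theca list lie mostly to the right, and the Arp2/3, formin, tropomyosin and SRF lists mostly to the left.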

How the data were processed

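RNA of 18 libraries was measured, 3 for each of 6 labelled populations, with germ cells sorted on an Aria 3, a Qiagen kit and DNase, and an Illumina HiSeq, per the labels' protocols. The authors deposited raw counts, whole numbers per gene and library. Cutadapt, STAR 2.4.2a, HTSeq, DESeq2 and GRCm38 are named, without role or order, per the submitters' processing notes; the annotation release, strand setting, read length and treatment of multi-mapped reads could not be taken from any of these. No molecular identifiers are named, and intervals and floors cover counting error alone.

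Of 46603 gene IDs, 46091 were found in GENCODE M21. After filterByExpr and TMM scaling, 1 model of the 6 groups was fitted in edgeR 4.0.16 (R 4.3.3; estimateDisp, glmQLFit and the 2-sided glmQLFTest), with Benjamini-Hochberg adjustment over all 18547 genes within a comparison. CPM were computed on these scaled totals. Each SE is the absolute log2 change divided by the root of F. The ratio of Actb to Actg1 (0.5 added to each count) was compared by exact permutation. Alternatives were RLE scaling, total library size, no filter, a filter of 1 CPM in 3 libraries, a 2-fold condition, a replicate block, leaving out 1 library at a time, PreL replicate 2 and LZ replicate 2 left out, pairs of groups fitted alone and DESeq2 1.42.0. The scripts were tested on simulated data.

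The 8 genes, the gene lists and the tests were chosen with earlier results of these data known. Named genes are the 8, per list and step the called genes with the largest changes (up to 4 in the list's main direction, up to 2 against it) at 10 CPM or more, and the genes most like each of the 8; a choice among these was printed. Lists were written from general knowledge. Replicate numbers were checked for pairing by correlating deviations from group means. The same numbers correlated at 0.228, 0.445 and 0.121 between Diff.Spg and PreL and at 0.455, 0.683 and 0.254 between PreL and LZ. In every other step at least 1 pair correlated at 0.0199 or less. The main tests did not pair libraries in any step, and the replicate block was run only as an alternative. Replicates of a group differed by 2.49 to 52.7 times the counting variance, so none was a copy.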

Additional observations from a re-analysis of the deposited data

How the results depend on the processing

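Counts of called genes in PD against LZ, RS against PD and RS against Undiff.Spg stayed within 1.5 times the main count under every alternative run. Of the 6 comparisons, the count of all genes called moved by over 1.5 times only with a 2-fold condition, to 4516, 4762 and 5145 in the first 3 steps, from 8061, 8380 and 8818; under it 0 of the 8 genes were called in the first step and 1 in LZ against PreL. With the pair fitted alone, 3 of the 8 passed the filter in Diff.Spg against Undiff.Spg. Of these, 2 were called (Actb added, adjusted p 0.00802 by edgeR), against 10987 of 14837 genes. In PreL against Diff.Spg the main count of 1 became 2 with no low-count filter, 2 with DESeq2, 0 with the replicate block, 0 with PreL replicate 2 and LZ replicate 2 left out, 0 with the pair fitted alone, 2 without LZ replicate 2 or 3, and 0 to 4 with any 1 library left out (0 without PreL replicate 2 or any Diff.Spg replicate, 4 without PreL replicate 1). All genes called were 8179 of 31832 with no filter, 8756 of 18547 with DESeq2 and 8138 of 18547 with the block. They were 8477 of 19025 with both libraries left out and 7694 of 14362 for the pair alone. With any 1 library left out they ran from 6876 of 19125 to 8738 of 19106. In LZ against PreL the main count of 3 became 5 with both libraries left out and 3 to 6 with any 1 left out. All genes called were then 8900 of 19025, and 7841 of 19112 to 9707 of 19132. DESeq2 called Actl7a and Actl9 in PreL against Diff.Spg. It gave no adjusted p for Actrt2 and so called this gene in none of the comparisons. DESeq2 called 7 of the 8 genes in PD against LZ, 5 in RS against PD, 7 in RS against Undiff.Spg and 7 for any difference among the groups. Of all 18547 genes it called 15209, 10595, 16249 and 18271 in the same order.

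Signs turned only for values not called, and for Actrt2 in PreL against Diff.Spg. In Diff.Spg against Undiff.Spg, leaving out 1 library gave -0.28 to 0.67 for Actl7a, -0.03 to 1.48 for Actl7b and -0.29 to 1.09 for Actrt3. In PreL against Diff.Spg it gave -0.04 to 0.20 for Actl6a, -0.10 to 2.87 for Actl7a, -1.03 to 3.17 for Actl7b, 0.00 to 4.14 for Actl9, -0.56 to 3.29 for Actrt2 and -3.30 to 1.08 for Actrt3; with PreL replicate 2 and LZ replicate 2 left out, the values were -0.10 (Actl7a), -1.03 (Actl7b), 0.00 (Actl9), -0.56 (Actrt2) and -3.29 (Actrt3). In LZ against PreL it gave -1.13 to 2.74 for Actl7a, -1.48 to 3.74 for Actl7b, -1.23 to 4.27 for Actl9, -0.23 to 3.63 for Actrt2 and -1.47 to 3.82 for Actrt3; total library size gave -0.15 for Actl7b and -0.18 for Actrt3, and RLE scaling, no filter and DESeq2 each gave -0.03 for Actrt3. Actb in PD against LZ was -0.05 with total library size. The log2 ratio of Actb to Actg1 in PreL against Diff.Spg ran from -0.168 to 0.208. The cause of these turns was not tested.

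The replicate block gave an exact p of 0.25 for the ratio in 5 of the 6 comparisons, the smallest that 3 pairs allow, and changed no other call than those given for Actrt2 and Actb. Total library size moved the median of all genes by -0.797 in RS against Undiff.Spg, -0.352 in PD against LZ, -0.204 in LZ against PreL and -0.137 in RS against PD, and RLE scaling by 0.195 and 0.138 in RS against Undiff.Spg and RS against PD. With total library size, 6884 of 18547 genes were called higher and 8511 lower in PD against LZ. In RS against PD these were 4952 and 6261, beside which the list counts with total size are to be read. Reads of Actl9 and Actrt3 before PD were too few to order those groups.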

Other observations

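Actg2 and 3 further actin-like genes were also highest in RS. Actg2, the gamma actin of smooth muscle, stood at 232.7, 229.2 and 190.6 CPM in RS and at 24.2, 18.6 and 23.1 CPM in PD, and rose 3.31 ± 0.57 on the log2 scale (adjusted p 8.38e-05 by edgeR). Of the other 6 peritubular myoid markers, Acta2, the usual marker of these cells, was at 1.04 to 1.67 CPM in RS, Myl9 was at 0 in PD and RS, and none of the 6 was above 5.18 CPM in RS. Of the 5 muscle actins, 2 passed the low-count filter. Actl11 rose from 46.0 ± 5.51 to 440.6 ± 10.5 CPM (SD, n = 3; 3.26, adjusted p 0.00130), Actl10 from 5.74 ± 0.533 to 68.8 ± 7.96 CPM (3.58, adjusted p 1.22e-06), and Actrt1, an X-linked relative of Actrt2, from 1.55 ± 0.160 to 18.3 ± 3.89 CPM (3.55, adjusted p 8.13e-06). In PD they stood at 10.4%, 8.34% and 8.48% of their RS level. Of 13 other actin-like and actin-related genes, 5 were higher and 3 lower in RS than in PD (30.3% and 28.6% of all genes), or 5 and 5 with total library size, and 9 were higher and 3 lower in PD than in LZ (42.1% and 40.8%). Actr1a, the dynactin actin-related protein, rose from 141.4 ± 19.1 to 835.5 ± 15.8 CPM from LZ to PD (2.56, adjusted p 1.19e-12).

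Single genes of the capping and monomer binding lists changed in either direction. Capza3, the sperm capping protein, rose from 18.5 ± 3.27 to 172.9 ± 17.4 CPM from PD to RS (SD, n = 3; 3.23, adjusted p 0.000115 by edgeR), while Capza2, its general form, fell from 40.3 ± 2.30 to 24.5 ± 0.732 CPM (-0.72, adjusted p 8.19e-05). Pfn4, a testis profilin, rose from 9.21 ± 2.89 to 204.5 ± 3.51 CPM from LZ to PD (4.47, adjusted p 9.7e-09), and Pfn3 from 3.18 ± 0.627 to 34.4 ± 5.15 CPM from PD to RS (3.43, adjusted p 2.11e-06). Pfn1, the general profilin, fell from 381.7 ± 103.7 to 140.2 ± 10.4 CPM from PreL to LZ (-1.44, adjusted p 1.37e-06) and from 161.3 ± 16.5 to 61.2 ± 0.490 CPM from PD to RS (-1.40, adjusted p 1.01e-06). Tmsb10, a thymosin that binds monomers, rose from 77.4 ± 11.5 to 907.4 ± 4.37 CPM (3.55, adjusted p 2.6e-11), and Capza1, a general capping subunit, from 19.1 ± 2.45 to 91.8 ± 4.68 CPM (2.26, adjusted p 2.06e-11), both from LZ to PD.

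The genes whose log2 CPM followed each gene most closely over the 18 libraries were, by Pearson's r among about 10338 named genes, Prpf6 (0.975) for Actb, Rnf126 (0.995) for Actg1, Zfp691 (0.981) for Actl6a, Acrv1 (0.998) for Actl7a, Ccdc105 (0.996) for Actl7b, Haspin (0.997) for Actl9, Spert (0.994) for Actrt2 and Tekt2 (0.991) for Actrt3. The libraries share their groups, and by rank correlation the first 3 genes were mostly others.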
